A study of Mus musculus with 8 samples.

Results

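The 39 Hox genes on the array were followed in mouse 3T3-L1 cells as the cells were taken from growth through confluence into fat cell differentiation. They were chosen by name: each has a mouse symbol, reached through the RefSeq accession of its probe, of Hoxa, Hoxb, Hoxc or Hoxd followed by a number. They make up 39 of the 32422 genes and unnamed transcripts on the array, 11 from the Hoxa cluster on chromosome 6, 10 from Hoxb on chromosome 11, 9 from Hoxc on chromosome 15 and 9 from Hoxd on chromosome 2. Where a gene had several probes, the brightest was used.

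Hox genes encode homeodomain transcription factors that tell cells where they lie along the body axis and the limbs. Within a cluster the genes are numbered from the 3′ end, whose genes act nearest the head, to the 5′ end, whose genes act nearest the tail, and genes of the same number in different clusters are paralogs. Fibroblasts and fat cell precursors from different body sites are known to keep different sets of active Hox genes in culture, held by Polycomb and trithorax chromatin regulators, and Hox proteins bind DNA together with cofactors of the Pbx and Meis families.

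3T3-L1 is a preadipocyte line from mouse embryo fibroblasts. The sh8 line is 3T3-L1 that stably carries shRNA-8, a hairpin directed at slincRAD, a long noncoding RNA, and WT is 3T3-L1 without it; whether sh8 is 1 clone is not given. Both lines were sampled at day -2 and day 0, before induction, and at days +2 and +4, after it; day 0 is confluence, when 0.5 mM 3-isobutyl-1-methylxanthine, 1 µM dexamethasone and 167 nM insulin were added. Each line and day gave 1 array, 8 in all, with no replicate of a line and day and no line with a control shRNA.

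Across the 8 arrays the 75th percentile of the processed intensity lay between 813 and 1348, 65.4% to 82.1% of spots passed the scanner's flag for well above background, and saturation was flagged for 0 spots. The arrays of days -2 and 0 lay on 1 slide and those of days +2 and +4 on another, so that slide and induction cannot be told apart. All 8 mesenchymal markers (among them Col1a1 and Vim) were well above background on every array. Fat cell markers were so for 6 of 6 after induction and for 4 to 5 of 6 before it. On the second slide 11 of 11 lung epithelium markers were well above background in both lines, against 4 to 6 on the first, although the samples are described as 3T3-L1. Their summed intensity, in multiples of the array's 75th percentile, was 17.5 to 20.2 on the second slide and 6.94 to 7.62 on the first in sh8 cells, and 19.4 to 23.5 and 9.75 to 10.6 in WT cells. Sftpc, the surfactant gene that defines alveolar type II cells, had log2 levels of -7.26, -7.22, 1.62 and 1.57 in sh8 cells over the 4 days, against -7.52, -7.93, 1.03 and 1.53 in WT cells. Red blood cell markers were detected for 3 of 3 on the second slide against 1 on the first, and endothelium markers for 4 of 4 against 2. slincRAD itself was not analysed here, and the line labels therefore stand unchecked by its level. The number of arrays limits the precision.

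A Hox gene is called detected here on an array where its spot was well above background by the scanner's own flag. By this measure 21 of the 39 Hox genes were detected on all 8 arrays, among them Hoxa2, Hoxa3, Hoxa4, Hoxa6, Hoxa7 and Hoxa9, Hoxb2, Hoxb3, Hoxb4, Hoxb5, Hoxb6 and Hoxb9, Hoxc4, Hoxc6, Hoxc12 and Hoxc13, and Hoxd3, Hoxd4, Hoxd8 and Hoxd9. In paralog groups 1 to 3 this held for 6 of 8 genes, in groups 4 to 8 for 10 of 15 and in groups 9 to 13 for 5 of 16. Another 8 genes were detected on no array: Hoxa10, Hoxa11, Hoxb1, Hoxc8, Hoxc11, Hoxd10, Hoxd12 and Hoxd13. Hoxb13 was detected on the WT array of day -2 alone and Hoxd1 on the WT array of day +4 alone. At days -2, 0, +2 and +4 the detected Hox genes numbered 22, 21, 28 and 28 in sh8 cells and 25, 24, 26 and 29 in WT cells. On the same arrays 67.3%, 65.4%, 82.1% and 78.8% of all spots were well above background in sh8 cells. In WT cells the shares were 68.9%, 66.7%, 72.8% and 80.1%. The Hox counts are therefore not read apart from the detection of all spots.

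**Figure D1:**
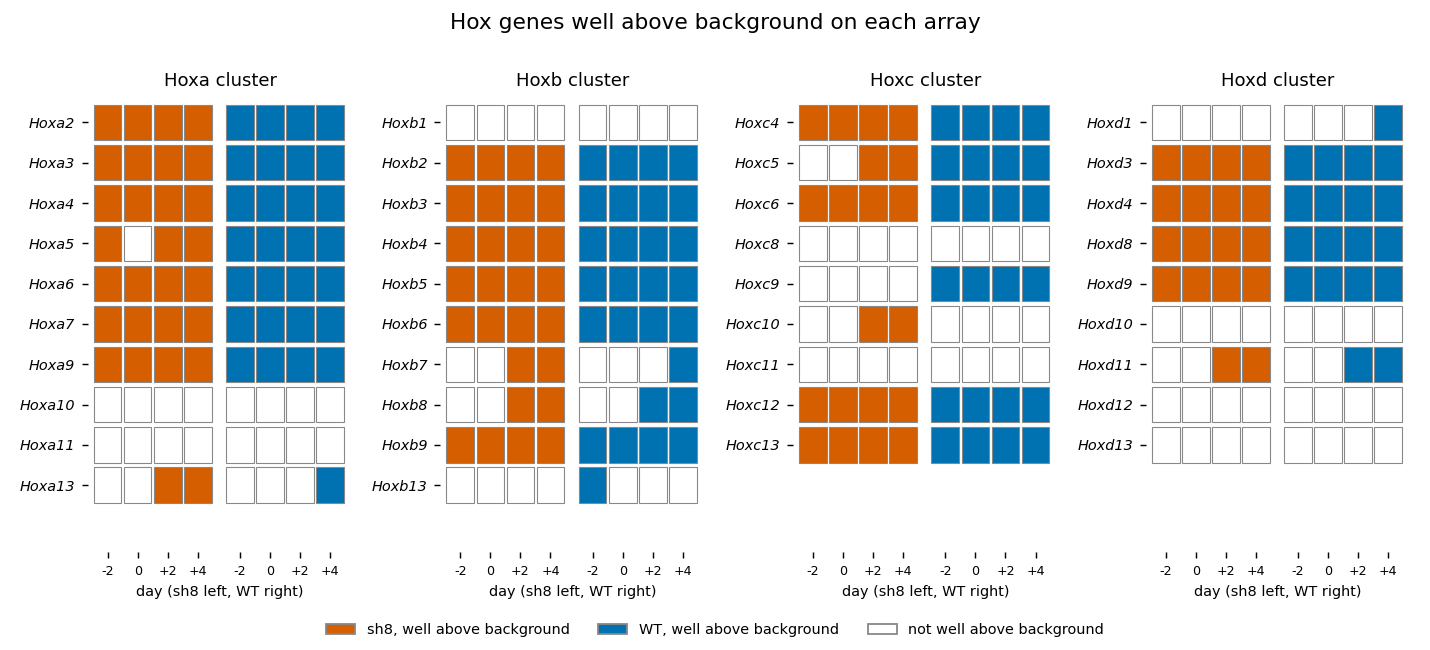
Detection of 38 Hox genes on each array, in 1 panel per cluster with 1 row per gene and 1 column per day (sh8 left, WT right). Filled squares mark a spot well above background. The 20 genes with 8 filled squares fall in all 4 clusters, Hoxc9 is filled in WT only and Hoxc10 in sh8 only, and Hoxa13, Hoxb7, Hoxb8 and Hoxd11 are filled only at days +2 and +4.

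The remaining 8 genes were detected on some arrays. Hoxa5 was detected on all arrays but sh8 at day 0, and Hoxc5 on all WT arrays and on the sh8 arrays of days +2 and +4. Hoxc9 was detected on all 4 WT arrays and on no sh8 array, and Hoxc10 on the sh8 arrays of days +2 and +4 and on no WT array. Hoxa13, Hoxb7, Hoxb8 and Hoxd11 were detected only at days +2 and +4, on the slide that also carried the lung epithelium markers; the part of those transcripts in these detections was not tested. The 29 Hox genes detected on at least 2 arrays entered the tests, 21 of them detected throughout. The filter let Hoxc9 in through WT alone, Hoxc10 through sh8 alone, and Hoxa13, Hoxb7, Hoxb8 and Hoxd11 through the second slide alone.

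The first comparison asked how Hox expression in sh8 cells differed from that in WT cells over the 4 days. Levels are log2 processed intensities relative to the 75th percentile of the same array, which lies at 0, and a difference of 1 is 2-fold. Hoxa3 (3.30-fold), Hoxa7 (2.60-fold), Hoxa2 (2.35-fold) and Hoxd4 (2.16-fold) were lower in sh8 cells. Hoxc6 (3.42-fold), Hoxc12 (1.99-fold) and Hoxc4 (1.94-fold) were higher, while Hoxc9 was detected in WT cells alone. In a limma fit with day and line, 6 of 29 Hox genes were higher and 9 lower in sh8 cells at an adjusted p under 0.05, beside 16.8% of all tested genes higher, 10.3% lower and 27% either way. Among the 21 Hox genes detected on all 8 arrays 6 were higher and 7 lower, beside 17.3% and 12.6% (29.9% either way) of the 19772 genes detected on all 8. Each of the 15 called Hox genes differed in the same direction on all 4 days, as did 4 of the 14 tested genes not called. The test's error is the spread of the daily differences, so a called gene is likely to keep its direction. This agreement is therefore no added support, and its share over all called genes was not computed. The 15 include Hoxc9, which the filter let in through WT, where it is high, so its call supports nothing; Hoxa5 is the other called gene not detected on all 8. In bulk RNA, fewer cells of a type and less RNA per cell cannot be told apart.

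The median difference of the 29 Hox genes was -0.088, against 0.13 for all genes tested, a gap of -0.22. With quantile scaling the 2 medians were -0.19 and 0.023, and the split of all called genes moved to 2645 higher and 2573 lower, against 4430 and 2723 with the 75th percentile, while 4 Hox genes were higher and 8 lower. Markers of other cell types also differed between the lines. By limma 6 of 7 leukocyte markers were higher in sh8 cells and 0 lower (summed intensity over the 75th percentile of 6.48 to 7.64, against 4.80 to 5.66 in WT cells), with Ptprc, which defines leukocytes, detected on all 8 arrays. Of the endothelium markers 2 of 4 were higher (summed 1.52 to 1.89 in sh8 cells, against 1.01 to 1.30 in WT cells), and of the fat cell markers 3 of 6 were lower (summed at most 26.6 in sh8 cells, against at least 36.3 in WT cells). Of all tested genes 16.8% were higher and 10.3% lower in sh8 cells. The part of these markers in the Hox differences was not tested.

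With 1 array per line and day, the error behind the p-values is the spread of the sh8 minus WT differences over the 4 days. Leaving out day -2 left 4 Hox genes higher and 7 lower, beside 2458 and 1759 of all genes. Leaving out day 0 left 0 higher and 1 lower (Hoxa3), beside 50 and 31 of all genes. Leaving out day +2 or day +4 left 0 Hox genes and 0 of all genes by limma, with 16 and 17 Hox genes and 9440 and 8645 of all genes at an unadjusted p under 0.05. On the first slide alone limma called 0 Hox genes and 0 of all genes (14 and 8386 at an unadjusted p under 0.05), and on the second alone it called 3 Hox genes higher and 7 lower, beside 3267 and 1905 of all genes.

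In the Hoxa cluster 5 of 9 tested genes were lower in sh8 cells and 1 was higher. Hoxa2, which gives the second pharyngeal arch its identity, had log2 levels of -1.61, -1.26, -2.31 and -3.00 in sh8 cells at days -2, 0, +2 and +4, against -0.90, -0.59, -0.68 and -1.07 in WT cells. The lines did not overlap, the gap was wider at days +2 and +4, and the difference was -1.23 ± 0.26 (SE, adjusted p = 0.0313). Hoxa3, needed for the thymus and parathyroid, had log2 levels of -0.096, 0.57, 0.11 and -0.14 in sh8 cells over the 4 days, against 1.65, 2.06, 1.84 and 1.80 in WT cells. Every sh8 array lay more than 1 unit below every WT array, and the difference was -1.72 ± 0.11 (SE, adjusted p = 0.00836).

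Hoxa5, a gene of the cervical and upper thoracic axis and of the lung, had log2 levels of -4.92, -5.25, -5.05 and -5.00 in sh8 cells at days -2, 0, +2 and +4, against -4.52, -4.29, -4.15 and -3.95 in WT cells, with the sh8 array of day 0 not well above background. The lines did not overlap, and the difference was -0.83 ± 0.14 (SE, adjusted p = 0.0216), but -0.26 with normexp, a model-based correction of the raw signals for background. Hoxa7, a gene of the thoracic axis, had log2 levels of 1.30, 1.81, 1.08 and 0.95 in sh8 cells over the 4 days, against 2.81, 3.24, 2.26 and 2.35 in WT cells. All sh8 values lay below all WT values, and the difference was -1.38 ± 0.10 (SE, adjusted p = 0.00850). Hoxa9, known for its role with Meis1 in blood stem cells and leukaemia, was the 1 Hoxa gene that was higher, with log2 levels of 2.27, 2.43, 2.74 and 2.99 in sh8 cells over the 4 days, against 1.37, 1.56, 2.37 and 2.44 in WT cells. On each day the sh8 array was the higher, although sh8 at days -2 and 0 overlapped WT at days +2 and +4. The difference was 0.67 ± 0.13 (SE, adjusted p = 0.0264), with 0.35 for its second probe.

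Hoxa7 and Hoxa9 are neighbours among the measured genes of this cluster and differed between the lines in opposite directions, so their promoters are shown, as the 250 bases before each start (RefSeq, GRCm38.p6: chr6:52218574-52218823, minus strand, and chr6:52227371-52227620, minus strand). They were searched on both strands for the TATA box TATAAA, the CCAAT box, the homeodomain core TAATTA, the Pbx with Hox motif TGATNNAT and the nuclear receptor motif AGGTCA. Neither window holds a match, so none of its letters are in capitals.
Hoxa7: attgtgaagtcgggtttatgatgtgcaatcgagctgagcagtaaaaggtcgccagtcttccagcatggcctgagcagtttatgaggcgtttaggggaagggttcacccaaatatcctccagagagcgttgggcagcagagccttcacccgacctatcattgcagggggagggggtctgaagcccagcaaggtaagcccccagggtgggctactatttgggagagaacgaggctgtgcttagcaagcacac
Hoxa9: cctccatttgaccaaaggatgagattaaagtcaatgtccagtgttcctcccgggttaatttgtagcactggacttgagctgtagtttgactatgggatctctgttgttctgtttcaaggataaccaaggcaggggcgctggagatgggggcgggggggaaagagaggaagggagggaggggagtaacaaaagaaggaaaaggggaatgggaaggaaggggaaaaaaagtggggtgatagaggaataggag
The Hoxa7 window has 7 CG dinucleotides and the Hoxa9 window 3, against a median of 6 over all 32851 promoter windows. Windows were listed for 22 of the 39 Hox genes, 24 in all, with a median of 12.5. TATAAA was in 16.7% of the Hox windows and 12.4% of all windows, CCAAT in 58.3% and 33.8%, TAATTA in 8.33% and 4.84%, TGATNNAT in 16.7% and 7.68%, and AGGTCA in 25.0% and 14.0%. Matches of different motifs could overlap, since motifs such as CCAAT and TAATTA have letters in common, but no Hox window held both of these.

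The other 3 tested Hoxa genes did not pass. Hoxa4 had log2 levels of -3.74, -3.36, -3.37 and -3.44 in sh8 cells over the 4 days, against -3.89, -3.62, -3.48 and -3.28 in WT cells, and the lines overlapped, with a difference of 0.091 ± 0.11 (SE, adjusted p = 0.549). Hoxa6 had log2 levels of -4.30, -4.38, -3.71 and -4.21 in sh8 cells over the 4 days, against -4.52, -4.41, -3.90 and -3.76 in WT cells, also overlapping (-0.0032, adjusted p = 0.989). Hoxa13, a gene of the distal limb and hindgut, was detected on 2 sh8 arrays and 1 WT array and did not pass (adjusted p = 0.252). Its log2 levels were -7.41, -6.58, -3.40 and -5.85 in sh8 cells over the 4 days, against -7.68, -6.93, -7.73 and -6.18 in WT cells, with the sh8 array of day +2 above the rest. A second probe, detected on 3 arrays, did not show this, with -5.96 in sh8 cells and -6.16 in WT cells at day +2. Most of these values lie at background, so no difference is given.

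**Figure D2:**
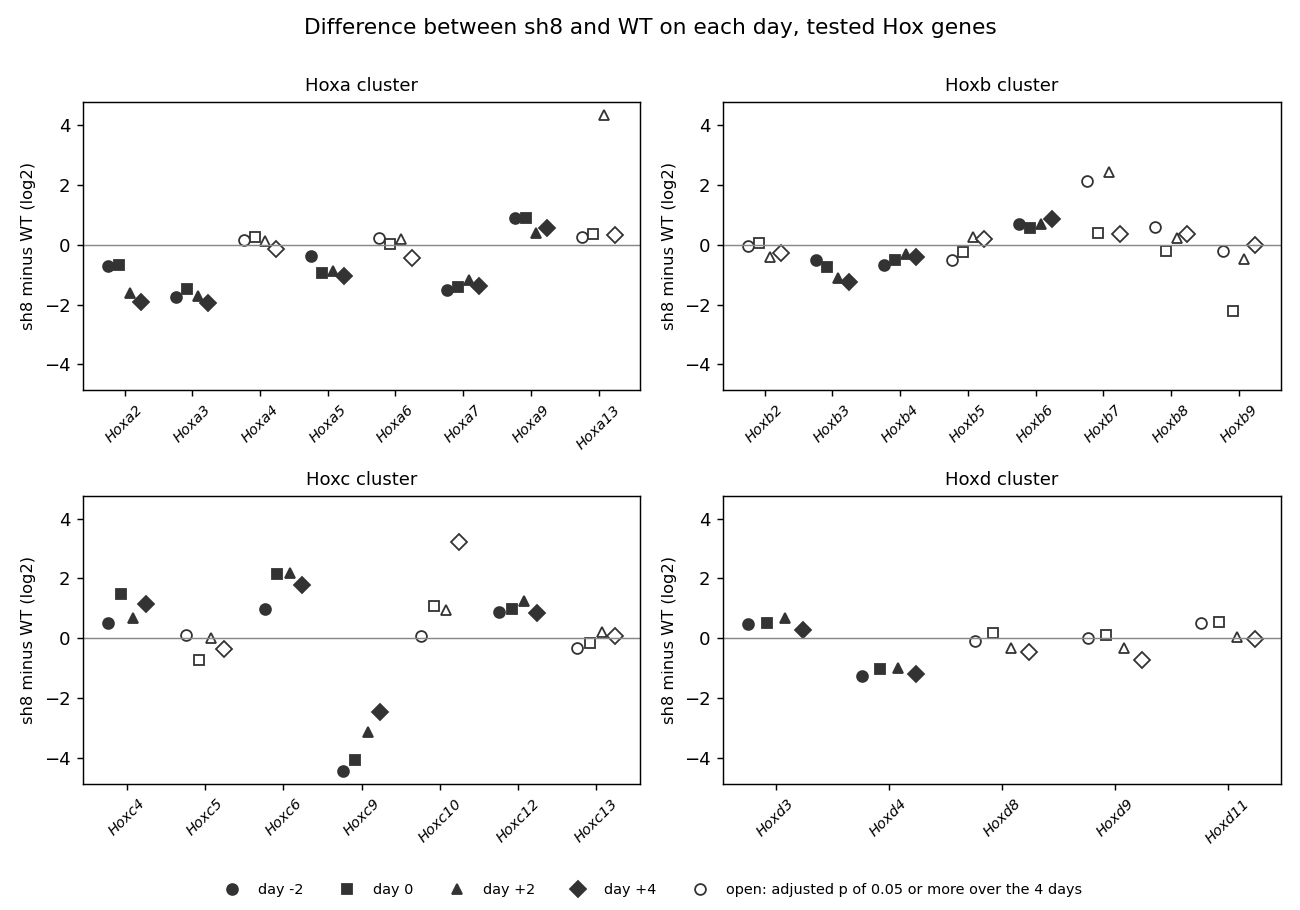
Difference in log2 level between sh8 and WT on each day for 28 tested Hox genes, in 1 panel per cluster, with 1 marker shape per day. Filled markers are genes with an adjusted p under 0.05 over the 4 days. Filled Hoxa markers lie below 0 except Hoxa9, filled Hoxc markers lie above 0 except Hoxc9, and the widest spread between days is in the open genes Hoxa13, Hoxb7, Hoxb9 and Hoxc10.

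In the Hoxb cluster 2 of 8 tested genes were lower in sh8 cells and 1 was higher. Hoxb3, a hindbrain and neck gene, had log2 levels of -1.60, -1.46, -2.04 and -2.07 in sh8 cells at days -2, 0, +2 and +4, against -1.08, -0.72, -0.92 and -0.82 in WT cells. The lines did not overlap, and the difference was -0.91 ± 0.16 (SE, adjusted p = 0.0219), with -0.81 for a second probe that was detected on all 8 arrays. Hoxb4, known for expanding blood stem cells, had log2 levels of 0.29, 0.49, 0.52 and 0.53 in sh8 cells over the 4 days, against 0.97, 0.99, 0.85 and 0.93 in WT cells. All sh8 values lay below all WT values by a small margin, and the difference of -0.48 ± 0.10 (SE, adjusted p = 0.0317) was not called with quantile scaling (-0.43, adjusted p = 0.0549). Hoxb6, a gene of the posterior body and limb bud, had log2 levels of -3.94, -4.33, -3.96 and -3.63 in sh8 cells over the 4 days, against -4.64, -4.89, -4.64 and -4.48 in WT cells. All sh8 values lay above all WT values, and the difference was 0.70 ± 0.095 (SE, adjusted p = 0.0156), or 0.36 with normexp background correction.

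Of the Hoxb genes that did not pass, 3 were detected on all 8 arrays. Hoxb2, which acts in the hindbrain, had log2 levels of 0.20, 0.17, -0.12 and -0.089 in sh8 cells over the 4 days, against 0.25, 0.12, 0.29 and 0.20 in WT cells, overlapping between lines (-0.17, adjusted p = 0.299). Hoxb5 had log2 levels of -5.11, -4.59, -4.27 and -4.11 in sh8 cells over the 4 days, against -4.58, -4.34, -4.52 and -4.28 in WT cells, with sh8 above WT after induction and below it before (-0.088, adjusted p = 0.705). Hoxb9, a gene of the rib cage, had log2 levels of -3.01, -5.12, -5.54 and -4.64 in sh8 cells over the 4 days, against -2.78, -2.90, -5.06 and -4.63 in WT cells. The sh8 array of day 0 was 2.22 below WT, and the other days differed by -0.23, -0.48 and -0.011 at days -2, +2 and +4, so that the difference was -0.73 ± 0.40 (SE, adjusted p = 0.219). Hoxb7 and Hoxb8, detected at days +2 and +4 only, did not pass between the lines (adjusted p = 0.0837 and 0.300), and their other arrays were at background.

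In the Hoxc cluster 3 of 7 tested genes were higher in sh8 cells and 1 was lower. Hoxc4, which patterns the neck and upper thorax, had log2 levels of -4.81, -4.05, -4.88 and -4.60 in sh8 cells at days -2, 0, +2 and +4, against -5.33, -5.54, -5.54 and -5.74 in WT cells. The lines did not overlap, and the difference was 0.95 ± 0.19 (SE, adjusted p = 0.0280); it was 0.68 with an adjusted p of 0.0728 with quantile scaling and 0.36 with normexp. Hoxc6, a gene of the upper thorax and of mammary gland, had log2 levels of -1.88, -1.69, -2.35 and -2.26 in sh8 cells over the 4 days, against -2.86, -3.84, -4.52 and -4.04 in WT cells. All sh8 values lay above all WT values, with the narrowest gap at day -2, and the difference was 1.77 ± 0.23 (SE, adjusted p = 0.0148). Hoxc12, from the 5′ end of the cluster, had log2 levels of -2.10, -2.29, -1.39 and -1.38 in sh8 cells over the 4 days, against -2.99, -3.29, -2.62 and -2.23 in WT cells. On each day sh8 was higher, by 0.85 to 1.23, and the difference was 0.99 ± 0.11 (SE, adjusted p = 0.0119).

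Hoxc9, which sets thoracic identity in motor neurons, had log2 levels of -8.06, -7.63, -8.91 and -8.42 in sh8 cells at days -2, 0, +2 and +4, against -3.65, -3.57, -5.77 and -5.96 in WT cells. No sh8 array was well above background and all 4 WT arrays were, so sh8 has only a bound. With the main processing Hoxc9 was at least 2.42-fold lower in sh8 cells, from measured means of -8.25 in sh8 cells and -4.74 in WT cells. The bound holds for that processing alone. Over the settings run the fitted difference ran from -4.24 to -0.77, the smallest of which lies under the bound. Hoxc9 entered the tests through WT alone, so neither its p nor its fitted difference is read. Hoxc13, which controls hair and nail keratins, had log2 levels of -0.78, -1.60, -2.79 and -2.78 in sh8 cells over the 4 days, against -0.46, -1.44, -3.00 and -2.85 in WT cells. The lines lay close together on each day, and the difference was -0.050 ± 0.12 (SE, adjusted p = 0.777). Hoxc5 overlapped as well (-0.24, adjusted p = 0.326). Hoxc10, a gene known from subcutaneous fat in mouse and human, had log2 levels of -6.80, -6.62, -5.65 and -3.41 in sh8 cells over the 4 days, against -6.89, -7.72, -6.60 and -6.63 in WT cells, detected in sh8 at days +2 and +4 alone. It entered the tests through sh8 alone and did not pass (adjusted p = 0.116). The sh8 array of day +4 stood above the rest, and without that day the fitted difference was 0.71, against 1.34 with it, so no bound is given.

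In the Hoxd cluster 1 of 5 tested genes was higher in sh8 cells and 1 was lower, and they are neighbours. Hoxd3, a gene of the upper neck vertebrae, had log2 levels of -1.91, -1.09, -2.04 and -2.74 in sh8 cells at days -2, 0, +2 and +4, against -2.40, -1.61, -2.71 and -3.02 in WT cells. On each day sh8 was the higher line, by 0.28 to 0.67, within the wider range over days. The difference was 0.49 ± 0.11 (SE, adjusted p = 0.0314), but 0.36 with an adjusted p of 0.0877 with quantile scaling. Hoxd4, which also acts in the hindbrain and neck, had log2 levels of -2.63, -1.26, -2.34 and -2.24 in sh8 cells over the 4 days, against -1.39, -0.25, -1.35 and -1.04 in WT cells. On each day sh8 was the lower line, by 0.99 to 1.25, although sh8 at day 0 overlapped WT at days -2 and +2, and the difference was -1.11 ± 0.098 (SE, adjusted p = 0.0100).

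The promoters of this pair are shown because the pair differed between the lines in opposite directions while sharing a peak at day 0 (RefSeq, GRCm38.p6: chr2:74711743-74711992, plus strand, and chr2:74721728-74721977, plus strand). Capitals mark matches to the 5 motifs searched above, on either strand. The Hoxd3 window holds a reverse AGGTCA and a reverse CCAAT, and the Hoxd4 window holds CCAAT, a reverse AGGTCA and a reverse TATAAA.
Hoxd3: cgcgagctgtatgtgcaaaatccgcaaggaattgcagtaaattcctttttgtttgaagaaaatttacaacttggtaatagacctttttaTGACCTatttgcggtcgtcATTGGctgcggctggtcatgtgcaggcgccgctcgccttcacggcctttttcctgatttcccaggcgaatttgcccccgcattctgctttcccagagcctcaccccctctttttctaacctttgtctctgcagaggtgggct
Hoxd4: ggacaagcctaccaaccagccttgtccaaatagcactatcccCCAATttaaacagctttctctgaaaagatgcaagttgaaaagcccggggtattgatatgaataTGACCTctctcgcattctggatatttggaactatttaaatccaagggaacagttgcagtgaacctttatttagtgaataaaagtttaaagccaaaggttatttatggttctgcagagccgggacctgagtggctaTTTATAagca
The Hoxd3 window has 12 CG dinucleotides and the Hoxd4 window 3.

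Hoxd8 had log2 levels of 0.54, 0.90, 0.72 and 0.48 in sh8 cells at days -2, 0, +2 and +4, against 0.62, 0.71, 1.03 and 0.93 in WT cells, and the lines overlapped (-0.16, adjusted p = 0.394). Hoxd9 had log2 levels of -3.25, -2.90, -3.64 and -4.16 in sh8 cells over the 4 days, against -3.27, -3.00, -3.33 and -3.42 in WT cells, nearly equal between the lines before induction, with sh8 the lower line after it (-0.23, adjusted p = 0.342). Hoxd11, a gene of the forearm and of kidney, did not pass either (adjusted p = 0.213), with its arrays before induction at background.

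**Figure D3:**
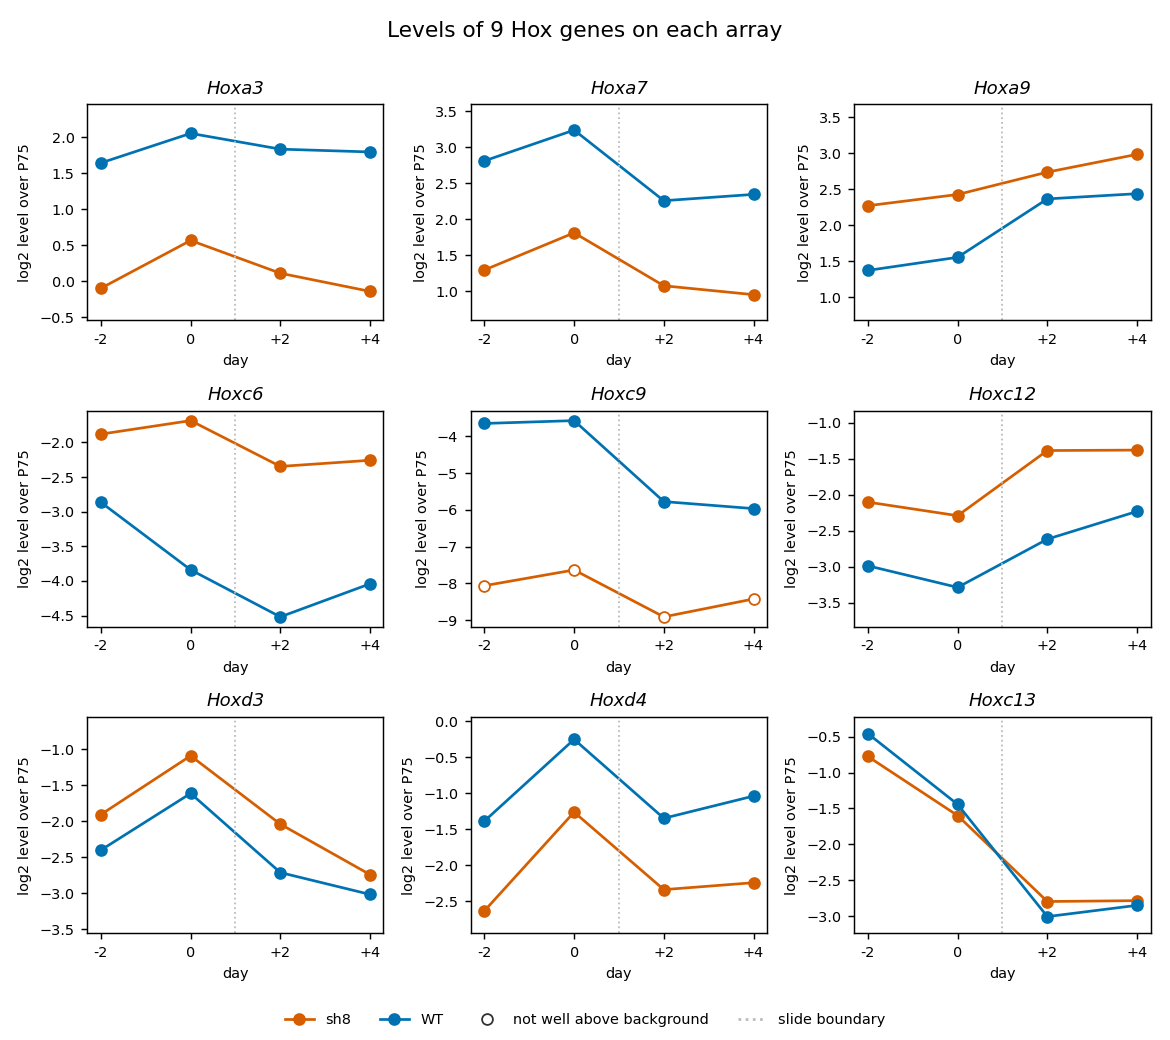
Log2 level over the array's 75th percentile by day for 9 Hox genes, 1 array per point (sh8 and WT lines, open points not well above background, dotted line at the change of slide). Hoxa3, Hoxa7 and Hoxc9 run lower in sh8 and Hoxc6 and Hoxc12 higher, Hoxd3 and Hoxd4 share a peak at day 0 with opposite differences between lines, and Hoxc13 falls in both lines together.

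By cluster, the median difference between sh8 and WT over the genes detected on all 8 arrays was -0.48 for Hoxa (7 genes), -0.33 for Hoxb (6), 0.97 for Hoxc (4) and -0.20 for Hoxd (4). The clusters were described and not tested against each other. By position, the tested genes of paralog groups 1 to 3 had a median of -0.70 (4 lower and 1 higher of 6). Those of groups 4 to 8 had a median of -0.045 (4 lower and 3 higher of 14), and those of groups 9 to 13 a median of 0.26 (1 lower and 2 higher of 9). Through 1 line or slide alone, the filter let Hoxb7 and Hoxb8 into groups 4 to 8. It likewise let Hoxa13, Hoxc9, Hoxc10 and Hoxd11 into groups 9 to 13. There the median is the value of Hoxd11 and the lower gene is Hoxc9. The 5 genes of groups 9 to 13 detected on all 8 arrays differed by 0.67 (Hoxa9), -0.73 (Hoxb9), 0.99 (Hoxc12), -0.050 (Hoxc13) and -0.23 (Hoxd9). No trend with position is therefore read. The 2 lines' arrays did not overlap over the 4 days for 9 of the 21 genes detected throughout, against 20.5% of all genes detected throughout. They did not overlap for 11 of the 29 tested, against 17.3%. The 11 include Hoxc9, which the filter let in through WT, where it is high, so it supports nothing here.

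By day, counts were made among the tested Hox genes detected on at least 1 of the day's 2 arrays. A gene was counted where sh8 and WT lay 1 log2 unit or more apart. With 1 array each there is no test on a single day. At day -2, 0 of 24 were higher and 4 lower (5.52% and 4.75% of all genes). At day 0, 2 of 24 were higher and 5 lower (6.9% and 4.9%). At day +2, 4 of 29 were higher and 5 lower (14.1% and 5.51%), and at day +4, 3 of 29 were higher and 7 lower (9.54% and 5.24%). The lower genes at day -2 were Hoxa3, Hoxa7, Hoxc9 and Hoxd4. These 4 genes were past the same difference on each later day except Hoxd4 at day +2 (-0.99). The sh8 arrays of Hoxc9 were at background. The higher genes include Hoxa13 (4.33) and Hoxb7 (2.43) at day +2 and Hoxc10 (3.22) at day +4. Each of these was not well above background in WT cells on that day. Hoxa13 and Hoxb7 entered the tests through the second slide alone, Hoxc10 through sh8 alone and Hoxc9 through WT alone. Their places in the counts therefore support nothing. Hoxb13, outside the tests and so not counted, was detected in WT at day -2, with a difference of -2.63 on that day.

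The genes outside the tests were dim. Hoxb13, at the 5′ end of its cluster, had log2 levels of -7.97, -7.56, -8.86 and -8.44 in sh8 cells at days -2, 0, +2 and +4, against -5.34, -6.12, -7.90 and -7.15 in WT cells, and Hoxd1 had -7.77, -7.35, -8.58 and -6.75 in sh8 cells over the 4 days, against -8.14, -7.77, -8.29 and -5.79 in WT cells. For both, the WT mean lay below the bound set by the dimmest detected probes, so no fold is given. Of the 8 genes detected on no array, the levels ran from -8.78 to -6.33 in sh8 cells and from -8.88 to -5.98 in WT cells, none of them well above background.

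The second comparison followed the cells from growth into confluence, day 0 against day -2, within the first slide. Among the genes detected on all 8 arrays Hoxd4 and Hoxd3 had the largest positive differences and Hoxb9 (-1.12) and Hoxc13 the largest negative ones, but 0 of 29 Hox genes were called by limma, as were 0% of all tested genes (5 Hox genes and 6714 of all genes at an unadjusted p under 0.05). Hoxd4 differed by 1.25 ± 0.14 (SE, adjusted p = 0.0545), with 1.37 in sh8 cells and 1.14 in WT cells. Hoxd3 differed by 0.80 ± 0.15 (SE, adjusted p = 0.0769), with 0.82 in sh8 cells and 0.79 in WT cells. Hoxc13 differed by -0.90 ± 0.17 (SE, adjusted p = 0.0812), with -0.82 in sh8 cells and -0.98 in WT cells. In each of these 3 genes the lines differed in the same direction. Hoxb9 differed by -2.11 in sh8 cells and -0.12 in WT cells (adjusted p = 0.290). Hoxa3 (0.54) and Hoxa7 (0.47) were the other 2 with an unadjusted p under 0.05. With normexp background correction these 5 genes were called, beside 2333 higher and 1180 lower of all genes. With the 19772 genes detected on all 8 arrays alone Hoxc13, Hoxd3 and Hoxd4 were called, beside 949 higher and 719 lower of all genes. Of the 21 genes detected throughout, 12 were higher at day 0 than at day -2 in both lines and 5 were lower in both. The same shares over all genes were not computed, so these counts are not read as a rise of Hox genes. The median difference was 0.22 for the 29 Hox genes and 0.080 for all tested genes.

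The third comparison set days +2 and +4, after induction, against days -2 and 0, before it. Hoxc13, Hoxb9, Hoxd3, Hoxa7 and Hoxd4 were lower after induction, and Hoxa9 and Hoxc12 were higher. Of the 29 Hox genes tested 4 were higher (13.8%) and 7 lower (24.1%), beside 26.7% and 9.54% of all tested genes and 36.3% of all genes either way. The filter let Hoxb8 and Hoxd11, counted as higher, in through the second slide, where they are high, and Hoxc9, counted as lower, in through WT, so these 3 calls support nothing. Among the 21 detected on all 8 arrays, 2 were higher and 6 lower, beside 20.4% and 11.7% (32% either way) of genes detected on all 8. The Hox median was -0.054 against 0.17 for all genes, a gap of -0.22; quantile scaling gave -0.16 and 0.036 with 2 Hox genes higher and 7 lower (4368 and 3307 of all genes), and normexp gave 8 higher and 8 lower (9938 and 3082 of all genes). Slide and induction cannot be told apart, and the part of the lung epithelium transcripts of the second slide in these differences was not tested.

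Hoxc13 had the lowest adjusted p of the Hox genes, with log2 levels of -2.79 and -2.78 after induction and -0.78 and -1.60 before it in sh8 cells, and -3.00 and -2.85 after and -0.46 and -1.44 before in WT cells. All 4 arrays after induction lay below all 4 before it, and the difference was -1.79 ± 0.12 (SE, adjusted p = 0.00191). In both lines the level at day 0 lay between that of day -2 and those of the later days. Hoxb9 differed by -1.51 ± 0.40 (SE, adjusted p = 0.0408), with -1.02 in sh8 cells and -2.00 in WT cells, and its sh8 array of day 0 lay with those of the later days. Hoxd3 differed by -0.88 ± 0.11 (SE, adjusted p = 0.00545) and Hoxd4 by -0.36 ± 0.098 (SE, adjusted p = 0.0435), both after their peak at day 0. At days +2 and +4 Hoxd4 lay below its level of day 0 but above that of day -2 in both lines. Without a filter on dim probes limma did not call Hoxd4 (adjusted p = 0.0573). Hoxa7 differed by -0.63 ± 0.10 (SE, adjusted p = 0.0105), with -0.54 in sh8 cells and -0.72 in WT cells, so that both lines fell. Hoxc9 was detected in WT cells alone, where it differed by -2.26; its sh8 arrays were at background, and its call over both lines was lost with quantile scaling (adjusted p = 0.142) and with normexp (adjusted p = 0.194).

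Hoxa9 differed by 0.73 ± 0.13 (SE, adjusted p = 0.0145), with 0.51 in sh8 cells and 0.94 in WT cells. Hoxc12 differed by 0.76 ± 0.11 (SE, adjusted p = 0.00780), with 0.81 in sh8 cells and 0.71 in WT cells. Both genes were highest at day +4 in each line. Hoxb8, a gene known for grooming behaviour and microglia in mice, had log2 levels of -5.87, -6.44, -5.22 and -4.87 in sh8 cells at days -2, 0, +2 and +4, against -6.47, -6.22, -5.43 and -5.23 in WT cells. It was detected on no array before induction, and with the main processing was at least 1.47-fold higher after it, from measured means of -5.19 after and -6.25 before. Its log2 change was 0.53 with quantile scaling and 0.40 with normexp, both smaller than this bound, which holds for the main processing alone. Hoxd11 had log2 levels of -6.55, -6.67, -5.72 and -5.64 in sh8 cells over the 4 days, against -7.05, -7.20, -5.78 and -5.60 in WT cells and was at least 1.04-fold higher after induction, from measured means of -5.68 after and -6.87 before. Hoxd11 too was detected on no array before induction. With quantile scaling neither was called (adjusted p = 0.0619 for Hoxb8 and 0.126 for Hoxd11). The 8 called genes detected on all 8 arrays differed in the same direction in both lines, and Hoxc13 was the 1 of them whose arrays after and before induction did not overlap.

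**Figure D4:**
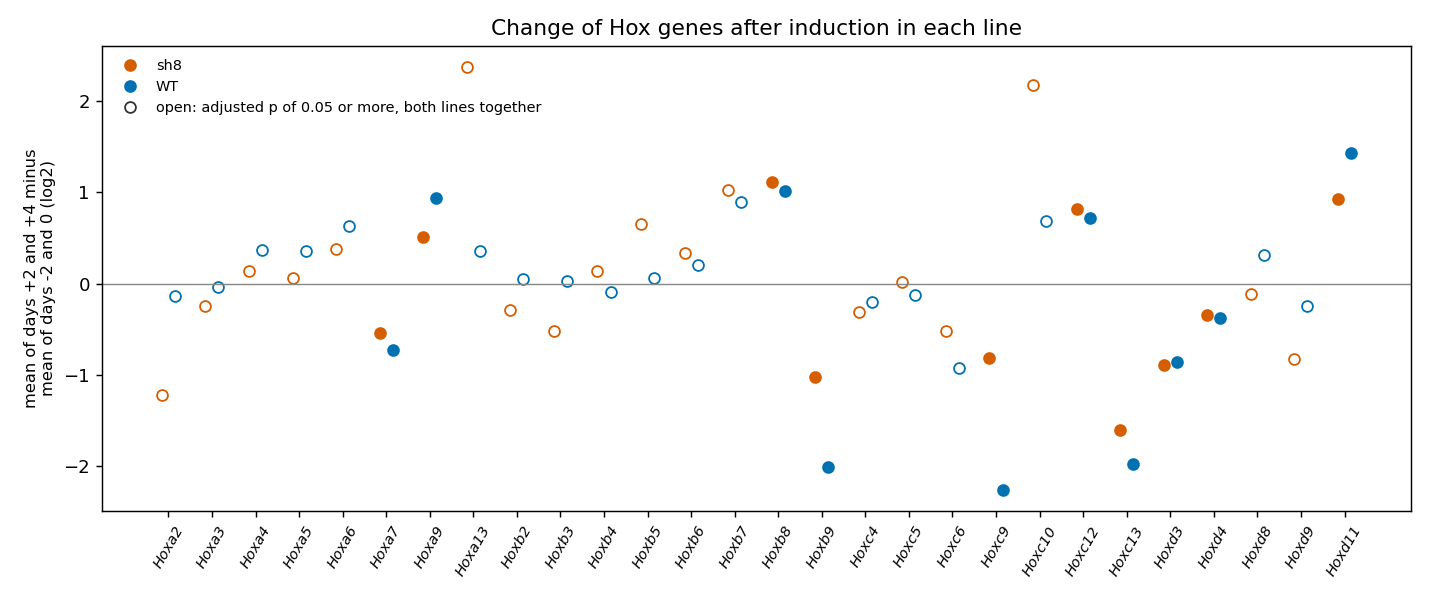
Change in log2 level after induction (mean of days +2 and +4 minus mean of days -2 and 0) of 28 tested Hox genes, with sh8 left of WT for each gene and filled points for genes with an adjusted p under 0.05 over both lines. Hoxb9, Hoxc9 and Hoxc13 lie lowest among the filled genes and Hoxb8 and Hoxd11 highest, and the lines differ most in open genes such as Hoxa13 and Hoxc10.

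Within the second slide, day +4 against day +2, limma called 0 Hox genes and 0% of all tested genes, with 1 Hox gene (Hoxd3, -0.50) and 1437 of all genes at an unadjusted p under 0.05. The median difference was 0.071 for the Hox genes and 0.077 for all genes. Over the whole course, 7 of the 21 genes detected throughout were highest at day 0 in both lines (Hoxa2, Hoxa3, Hoxa7, Hoxb3, Hoxd3, Hoxd4 and Hoxd9). Another 4 were highest at day +4 in both (Hoxa9, Hoxb5, Hoxb6 and Hoxc12), 2 at day -2 in both (Hoxb9 and Hoxc13), and 8 on different days in the lines. The shares of all genes highest on each day were not computed, and this ranking sets arrays of different slides against each other. These counts are therefore not read as a trait of Hox genes.

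The last comparison asked whether the change after induction differed between sh8 and WT cells. On simulated data its fit recovered 0% of added changes of 1 or 2 log2 units. An absence of calls therefore cannot show that the lines changed alike. In the interaction fit, which leaves 2 residual degrees of freedom, limma called 0 Hox genes and 0% of all tested genes, with 5 Hox genes and 5263 of all genes at an unadjusted p under 0.05. These 5 were Hoxa2, Hoxb3 and Hoxd11, more negative in sh8, and Hoxb5 and Hoxc9, more positive in sh8. Hoxa2 had the lowest adjusted p: its change was -1.22 in sh8 cells and -0.13 in WT cells, a difference of -1.09 ± 0.17 (SE, adjusted p = 0.129). It was called with genes detected on all 8 arrays alone (adjusted p = 0.0336), beside 845 of all genes more positive in sh8 and 273 more negative. With normexp Hoxa2 (-0.73, adjusted p = 0.0338) and Hoxc9 were called, beside 857 and 419 of all genes; Hoxc9 had its sh8 values at background, and its difference is not read.

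Among the proteins that bind DNA with Hox factors, 1 of 9 measured cofactors was lower in sh8 cells and 0 were higher, by limma over all genes (median 0.024, all genes 0.13). Of all tested genes 10.3% were lower and 16.8% higher. Meis2 had log2 levels of 2.53, 3.28, 3.41 and 3.71 in sh8 cells at days -2, 0, +2 and +4, against 3.62, 3.99, 4.15 and 4.01 in WT cells, lower in sh8 on each day, with a difference of -0.71 ± 0.15 (SE, adjusted p = 0.0313). After induction Pbx3 (-0.42, adjusted p = 0.0286) and Pknox2 (-0.35, adjusted p = 0.0425) fell and Pknox1 (0.64, adjusted p = 0.0202) rose, beside 9.54% of all genes lower and 26.7% higher. The 2 noncoding RNAs of the Hox clusters among the tested genes, Hoxd3os1 (0.34, adjusted p = 0.0641) and Hoxa11os (0.29, adjusted p = 0.203), did not pass between the lines; of 18 such RNAs listed, 2 were on the array. Hoxd3os1 had log2 levels of -2.80, -2.20, -2.33 and -2.70 in sh8 cells over the 4 days, against -2.96, -2.63, -2.82 and -2.99 in WT cells, highest at day 0 in both lines, as was Hoxd3.

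Of 23 Polycomb, trithorax and related chromatin regulators 5 were lower in sh8 cells and 1 was higher, beside 10.3% and 16.8% of all genes (median -0.12, all genes 0.13). Rnf2, the ubiquitin ligase of Polycomb complex PRC1, had log2 levels of 0.43, 0.87, 0.33 and 0.48 in sh8 cells at days -2, 0, +2 and +4, against 1.20, 1.59, 1.52 and 1.39 in WT cells. Every sh8 array lay below every WT array, with a difference of -0.90 ± 0.12 (SE, adjusted p = 0.0146). Cbx7, a chromobox reader in the same complex, had log2 levels of -5.35, -4.06, -3.59 and -3.47 in sh8 cells over the 4 days, against -2.23, -1.63, -2.63 and -2.30 in WT cells. Each sh8 array lay below every WT array, with a difference of -1.92 ± 0.41 (SE, adjusted p = 0.0314). Ash2l, a subunit of trithorax-type histone methyltransferases, differed by -0.68 (adjusted p = 0.0265), and the deacetylase Hdac3 by -0.56 (adjusted p = 0.0192). After induction 2 of the 23 rose and 3 fell, beside 26.7% and 9.54% of all genes. The 3 were Bmi1 (-0.43, adjusted p = 0.0177), Kmt2b (-0.44, adjusted p = 0.0183) and Kat6a (-0.41, adjusted p = 0.0259).

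Other homeobox and T-box genes that mark position numbered 38 tested of 47 on the array, with 8 higher and 4 lower in sh8 cells, beside 16.8% and 10.3% of all genes (median -0.042, all genes 0.13). Meox2, a homeobox gene of the somites and limb muscle, had log2 levels of -2.72, -2.19, -1.54 and -2.52 in sh8 cells at days -2, 0, +2 and +4, against -8.31, -7.96, -5.87 and -4.90 in WT cells. All sh8 arrays lay above all WT arrays, of which only those of days +2 and +4 were well above background, so no difference over the 4 days is given (adjusted p = 0.0154). Hand1, detected on 5 arrays, was higher in sh8 cells (adjusted p = 0.0180), and Msx2, detected on all 8, differed by 0.72 (adjusted p = 0.0192). After induction 10 rose and 1 fell, beside 26.7% and 9.54% of all genes. Tbx4, a gene of the hindlimb and of lung mesenchyme, was detected on no array before induction and on all 4 after it, at least 3.26-fold higher after it. Tbx5, of the forelimb, heart and lung, was likewise detected on the arrays after induction alone, at least 1.51-fold higher. Both entered the tests through the second slide alone, and their p is not read. Tbx2, also a lung mesenchyme gene, was detected on 4 arrays after induction and 1 before, with log2 levels of -8.08, -6.45, -1.98 and -1.76 in sh8 cells over the 4 days, against -6.33, -5.32, -2.23 and -1.89 in WT cells. These 3 were high with the lung epithelium markers of the second slide, whose part was not tested. Barx2 rose by 1.86 (adjusted p = 0.00438), and its log2 levels of -4.03, -1.37, -0.85 and -0.0092 in sh8 cells over the 4 days, against -4.04, -1.48, -1.69 and -0.93 in WT cells were already higher at day 0 than at day -2 in both lines.

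Retinoic acid is a known regulator of 3′ Hox genes. Of 17 tested genes of its pathway 4 were higher in sh8 cells and 1 was lower, beside 16.8% and 10.3% of all genes (median 0.30, all genes 0.13). Rdh10, which turns retinol into retinaldehyde, had log2 levels of -1.98, -1.21, -1.24 and -1.48 in sh8 cells at days -2, 0, +2 and +4, against -3.08, -2.50, -2.90 and -3.03 in WT cells. All sh8 arrays lay above all WT arrays, with a difference of 1.40 ± 0.13 (SE, adjusted p = 0.0103). Aldh1a2, which makes retinoic acid from retinaldehyde, differed by 0.49 (adjusted p = 0.0250), and Crabp2, which carries retinoic acid to its nuclear receptors, by 0.77 (adjusted p = 0.0132). After induction 6 of the 17 rose and 2 fell, beside 26.7% and 9.54% of all genes. The receptors Rxra and Rarg differed by 0.73 (adjusted p = 0.00726) and -0.68 (adjusted p = 0.00741). Cyp26a1, which degrades retinoic acid, was detected on the 2 WT arrays before induction alone and was at least 2.27-fold lower after it; it entered the tests through those arrays, and its p is not read.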

How the data were processed

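RNA of 2 lines was measured at 4 days on 8 Agilent arrays; the series text names another maker. Per the file headers, these are single-colour scans that the authors processed with Agilent Feature Extraction 11.0.1.1. The deposited processed intensity of each spot was used, with its deposited flags for detection and outliers. The authors' deposited log2 value table, with column medians of 6.39 and r of 0.994 to 1.00 with the matching array across probes, has no stated scaling and was used as an alternative; its making is not stated in the sources at hand.

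From 44397 spots, 1377 controls were left out. Repeat spots were averaged to 39429 probes, 46 were left out for outlier flags, and 27207 of the other 39383 received a symbol from RefSeq names (GRCm38.p6, names only, since the headers name mm9). Values were log2 processed intensity minus the array's 75th percentile. Genes detected on at least 2 arrays were tested (26446). limma 3.58.1 in R 4.3.3 with data.table (version 1.17.8) fitted day and line (3 residual degrees of freedom) and their interaction with induction (2), with Benjamini-Hochberg adjustment over all genes and a threshold of 0.05; these p-values may measure technical spread. The steps were tested on simulated data with known changes added. The line fit recovered 40.9% of changes of 1 log2 unit and 71.0% of changes of 2. For days after against before induction it was 30.4% and 69.4%. The interaction fit recovered 0% of either. A bound ("at least N-fold") sets the bright group's mean against the higher of the dim gene's value and the dimmest detected probe on each array. Bounds were computed with the main processing alone and may not hold under the alternatives. Alternatives were quantile scaling, normexp (offset 50) on the median spot and background signals because no mean signal was in the files, the authors' table, other filters, mean of probes, slide for day, single slides and leaving out each day. Other genes were named from lists, up to 4 past the threshold with the lowest p; 1 Hox gene and some of these genes enter the counts but are not reported here. Members and lists were chosen with earlier results of these data known.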

Additional observations from a re-analysis of the deposited data

Results flagged for a closer look

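In 4 Hox genes the direction on every array pair turned between the groups compared, while the interaction test in limma did not pass. Hoxb4 was higher after induction in sh8 cells (0.13) and lower in WT cells (-0.094), a difference of 0.23 (adjusted p = 0.461). Hoxb5 was higher in sh8 than in WT after induction (0.21) and lower before it (-0.39), a shift of 0.60 (adjusted p = 0.206). Hoxc13 was likewise higher in sh8 after induction (0.14) and lower before it (-0.24), a shift of 0.37 (adjusted p = 0.299). Hoxd9 was lower in sh8 after induction (-0.52) and higher before it (0.061), a shift of -0.58 (adjusted p = 0.255). Each of these rests on 2 arrays per line and period.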

How the results depend on the processing

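The 15 Hox genes called between sh8 and WT kept their direction in all settings run. With normexp background correction or without a filter on dim probes all 15 calls remained, and 12 did with quantile scaling or the authors' values. With slide in place of day 13 remained and 2 were lost. The counts were 6 higher and 9 lower with the 75th percentile. On the first slide alone 0 were higher and 0 lower by limma (14 Hox genes at an unadjusted p under 0.05), and on the second slide alone 3 were higher. Leaving out each day in turn gave 0 to 4 higher and 0 to 7 lower, and a median difference of -0.12 to -0.033. That median was -0.088, and it was -0.19 with quantile scaling, -0.19 with the authors' values and 0.051 on the first slide alone. For day 0 against day -2, normexp gave 5 calls and the filter for detection on all 8 arrays gave 3, against 0. For the difference between the lines in the change after induction they gave 2 and 1, against 0. After induction 11 Hox genes were called, and the total was 9 to 16 under the 6 alternatives. Of these 11 calls, 8 remained with quantile scaling or the authors' values, and 10 with normexp or without a filter on dim probes. With the mean of probes 10 remained and 1 changed direction. The causes of these shifts were not tested. The day term of the fit already sets sh8 against WT within each day; no paired analysis was possible because each line and day has 1 array, so that no replicate numbers pair the arrays further. Dim genes near background carry wide errors in all settings.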
